A study of Mus musculus with 6 samples.

Results

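Fabp1 (ENSMUSG00000054422) and Fabp2 (ENSMUSG00000023057) encode the liver-type and the intestinal fatty acid binding protein. They were chosen by name and not by a rule on their values, though with earlier results of these data known. They were 2 of the 5674 genes present in both deposited expression tables of this single-cell study of mouse jejunal epithelium. The small intestine of mice aged 120 days, of mixed CD-1:C57BL/6 background, had been divided into 12 pieces, of which the 3rd gave the anterior jejunum and the 7th the posterior jejunum. The labels gave no genotype and no treatment, although the title of the series concerns ID2 and the differentiation of entero-endocrine cells. Cells from villi and crypts were combined in equal parts, sorted as single live cells carrying EpCAM, an epithelial surface protein, and sequenced by MARS-seq, a plate method that counts mRNA 3' ends by unique molecular identifiers (UMIs). Both regions were taken from the same 3 mice, which gave 6 samples. Regions were compared over 3 samples each, and the cells of a sample were not treated as replicates. Mixing villus and crypt cells before the sort set the shares of the cell classes, so those shares were not compared.

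Fatty acid binding proteins are small cytosolic carriers. In the absorptive cells of the villus (enterocytes) they take up long-chain fatty acids that enter across the brush border and carry them through the cytosol, for the most part to the endoplasmic reticulum, where triglyceride is rebuilt and packed into chylomicrons. Fabp1 has a wide binding pocket that also accepts acyl-CoA, lysophospholipids and other bulky ligands and is the form shared with the liver, whereas Fabp2 is largely restricted to the small intestine and binds mainly fatty acids. Genes of this pathway are known targets of HNF4, PPAR, HNF1, CDX and GATA factors in the gut.

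Both genes were located in the GENCODE vM21 annotation of GRCm38. Fabp1 lies on chromosome 6 from 71199827 to 71205023 on the plus strand, with 4 exons and a single annotated mRNA of 553 bases. Fabp2 lies on chromosome 3 from 122895072 to 122899506 on the plus strand, also with 4 exons and a single mRNA, of 965 bases. In enterocyte-like cells the mean levels of the genes differed in opposite directions between the regions of every mouse. The DNA just before each annotated start is therefore shown, 5' to 3', from RefSeq on GRCm38.p6 (both genes matched). The Fabp1 stretch is chr6:71199629-71199826 and the Fabp2 stretch chr3:122894822-122895071, with matches to the motifs named next in capitals.
Fabp1: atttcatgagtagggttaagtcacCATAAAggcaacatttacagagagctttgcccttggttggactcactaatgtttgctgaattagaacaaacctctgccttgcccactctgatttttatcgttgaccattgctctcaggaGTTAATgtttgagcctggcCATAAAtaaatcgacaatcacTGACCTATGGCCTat
Fabp2: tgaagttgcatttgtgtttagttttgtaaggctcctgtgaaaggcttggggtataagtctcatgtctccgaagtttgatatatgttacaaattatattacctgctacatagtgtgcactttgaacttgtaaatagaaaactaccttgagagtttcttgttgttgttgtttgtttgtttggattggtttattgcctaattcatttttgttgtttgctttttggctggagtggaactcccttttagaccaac
Motifs were searched on both strands of the 250 bases before the RefSeq start, namely the direct repeat bound by HNF4 and PPAR (AGGNCA given 2 times with 1 base between), the HNF1 core motif GTTAAT, the motif of CDX factors, TTTATG, and the motif of the zinc finger factors named GATA, which is written AGATAA. In Fabp1 the direct repeat was found on the minus strand at bases -67 to -55, GTTAAT at -107 to -102, and TTTATG on the minus strand at -226 to -221 and at -88 to -83, counted from the RefSeq start, with none overlapping another. The RefSeq start of Fabp1 is base 71199879, after the GENCODE start, so the last bases of its searched window are not printed. All of the matches lie in the printed stretch. For Fabp2 both starts are the same base. In Fabp2 none of these letters was found in the window. Of all 32851 promoter windows of that length, 0.338% held the direct repeat, 6.43% GTTAAT, 10.8% TTTATG and 9.99% AGATAA. A match is a description of the sequence, and neither a match nor its absence shows what binds there.

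The tables held 2043 cells (1028 anterior and 1015 posterior) with a median of 3468 UMIs and 803 genes per cell, and between 1640578 and 3157105 UMIs per sample. Mouse 1 gave 568 anterior and 511 posterior cells from 2 and 3 plates, and every other sample 198 to 280 cells from 1 plate, so that plate cannot be told apart from sample in mice 2 and 3. Cells fell into 890 enterocyte-like, 629 goblet-like, 273 crypt progenitor-like, 109 enteroendocrine-like, 101 Paneth-like and 41 tuft-like cells, from clusters found without the Fabp and other lipid genes and named by marker lists. The enterocyte-like class joined 3 clusters. Cluster 1 raised 20 of 22 enterocyte markers and cluster 9 raised 13, with a median of 10452.5 and 1558.5 UMIs per cell. Cluster 10 raised only 7 and was led by Gip, an enteroendocrine hormone gene, and by Reg3g and Mt2. It held 58 of the 97 anterior and 56 of the 74 posterior enterocyte-like cells of mouse 1 but at most 25 cells in any sample of the other mice, so results are also given without it or without mouse 1 where these change a call. Levels are UMIs per 10000 UMIs of a cell (CP10K), averaged over the cells of a class in a sample. One UMI stands for 1 captured 3' end, so levels are not divided by length, and capture may still differ between genes. The Fabp1 to Fabp2 ratio is therefore read only between groups of cells.

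Enterocyte-like cells carried the 2 genes in opposite regional order, although neither difference passed the test across all genes. Fabp2 was 3.11-fold higher in the posterior jejunum on the fitted scale and higher there in every mouse. Mean Fabp1 was higher in the anterior jejunum of every mouse, by little in mouse 1. Fabp2 stood at 90.2, 85.0 and 55.5 CP10K in anterior mice 1, 2 and 3 and at 167, 258 and 300.2 CP10K in posterior mice 1, 2 and 3. The lowest posterior sample thus lay above the highest anterior one, a separation in this direction that 4.03% of the 4989 genes tested showed. Within mice 1, 2 and 3 the posterior Fabp2 level was 1.85, 3.04 and 5.41 times the anterior level, and 11% of genes were lower anteriorly in all 3 mice. As a share of all UMIs of these cells, Fabp2 made up 0.555% to 0.902% anteriorly and 1.67% to 3.00% posteriorly. Fabp1 stood at 129, 133 and 67.6 CP10K anteriorly and at 123, 49.9 and 42.7 CP10K posteriorly. These groups overlapped, because posterior mouse 1 was as high as the anterior samples. The anterior Fabp1 level was 1.05, 2.67 and 1.58 times the posterior one in mice 1, 2 and 3, and 18.6% of genes were higher anteriorly in all 3 mice. Its median over cells was also higher anteriorly in mice 2 and 3. In mouse 1 this median ran the other way, at 91.8 CP10K anteriorly and 103 posteriorly. The plates of mouse 1 gave Fabp1 means of 105.7 and 145 CP10K anteriorly and 62.6, 100.2 and 152 CP10K posteriorly.

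The group means were 76.9 ± 18.7 CP10K anteriorly and 242 ± 68.2 CP10K posteriorly for Fabp2 (SD, n = 3 each), and 109.9 ± 36.7 and 71.7 ± 44.2 CP10K for Fabp1. By limma across all genes, the anterior minus posterior difference in log2 level was -1.64 for Fabp2 (SE 0.48, 95% interval -2.69 to -0.59, unadjusted p = 0.0054, adjusted p = 0.906) and 0.72 for Fabp1 (SE 0.53, 95% interval -0.45 to 1.88, adjusted p = 1.00). Neither passed the adjusted threshold of 0.05, and no gene did: limma called 0 of 4989 genes (0%), with 234 at an unadjusted p under 0.05, among which Fabp2 ranked 27 of all genes by p. With mouse as a replicate block limma called 6 genes, again neither of these (adjusted p = 0.0893 for Fabp2). Without both samples of mouse 1, limma called 9 genes and Fabp2 was among them, with a difference of -2.02 and an adjusted p of 0.0164. That fit held only mice 2 and 3 and was added after seeing the data. It left out the mouse with the smallest Fabp2 difference between regions.

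**Figure D1:**
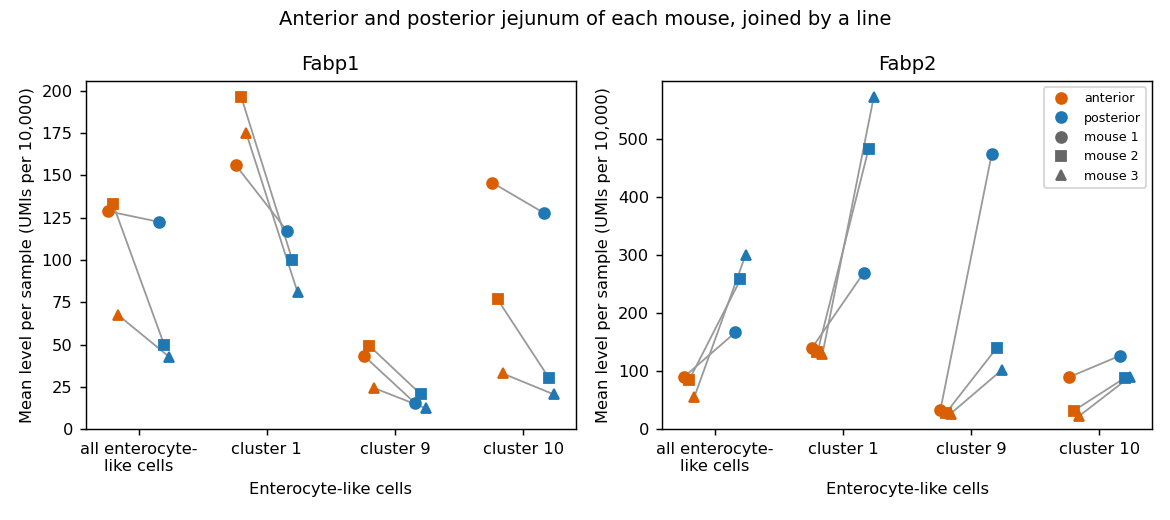
Mean level (UMIs per 10000, linear axis) of Fabp1 (left) and Fabp2 (right) in all enterocyte-like cells and in each of the 3 clusters that make up the class, 1 point per sample, with the samples of a mouse joined by a line. Lines fall from anterior to posterior for Fabp1 and rise for Fabp2 in every cluster; the posterior mouse 1 point of cluster 9 rests on 2 cells.

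The same order was seen inside each enterocyte-like cluster. In cluster 1, which had the highest depth and the most enterocyte markers, Fabp1 stood at 156, 197 and 175 CP10K anteriorly and at 117, 99.9 and 81.0 CP10K posteriorly. Fabp2 in those cells stood at 141, 132 and 129.7 CP10K anteriorly and at 269, 483 and 572 CP10K posteriorly. Neither gene overlapped between regions there, as for 8.73% of 4545 genes higher and 5.94% lower anteriorly. In cluster 9 Fabp1 stood at 43.3, 49.4 and 24.3 CP10K anteriorly and at 15.3, 20.8 and 12.4 CP10K posteriorly. Fabp2 in cluster 9 stood at 33.6, 27.2 and 27.0 CP10K anteriorly and at 474 (2 cells), 140.3 and 102 CP10K posteriorly. Here limma called Fabp2 when the cluster was fitted alone, without the 2-cell sample (difference -2.03, adjusted p = 0.00874). In cluster 10 Fabp1 was far higher in mouse 1 (146 and 128 CP10K, anterior and posterior) than in mouse 2 (76.8 and 30.5) or mouse 3 (33.0 and 20.6). Its Fabp2 level was 89.5, 31.9 and 22.5 CP10K anteriorly and 127, 88.8 and 90.6 CP10K posteriorly.

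The ratio of Fabp1 to Fabp2 put both changes into 1 value. In enterocyte-like cells it was 1.43, 1.57 and 1.22 in the anterior samples and 0.735, 0.193 and 0.142 in the posterior samples, with no overlap. The log2 ratio was higher anteriorly by 2.35 (two-sided exact permutation test over 6 samples, p = 0.1, the smallest p that 3 against 3 samples allow, and 0.2 after adjustment over the 8 ratios compared). Goblet-like cells had ratios of 1.00, 0.748 and 0.695 anteriorly and 0.282, 0.148 and 0.0686 posteriorly, a log2 difference of 2.47 (exact permutation p = 0.1, adjusted 0.2). In crypt progenitor-like cells the ratios were 2.72, 0.718 and 0.559 anteriorly and 1.35, 0.119 and 0.0769 posteriorly, which overlapped because mouse 1 was high in both regions (log2 difference 2.10, exact permutation p = 0.3, adjusted 0.4). Inside each of these mice, the anterior ratio was the higher one in all 3 classes.

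Goblet-like cells had lower levels, with Fabp1 higher anteriorly and Fabp2 higher posteriorly in every mouse. Fabp1 stood at 29.7, 17.5 and 12.5 CP10K anteriorly and at 13.3, 8.56 and 3.57 CP10K posteriorly. The groups overlapped by a single pair of samples, and the anterior level was higher by 2.24, 2.04 and 3.51 times within mice 1, 2 and 3 (12.9% of 4254 genes were higher in all 3). Goblet Fabp2 stood at 29.7, 23.3 and 18.0 CP10K anteriorly and at 47.1, 57.9 and 52.0 CP10K posteriorly, with no overlap, as for 3.13% of genes in this direction. By limma the differences were 1.31 for Fabp1 (SE 0.47, adjusted p = 0.998) and -1.16 for Fabp2 (SE 0.35, adjusted p = 0.998), and 0.0235% of genes were called, 1 in number. With mouse as a replicate block limma called 4 genes, Fabp2 among them (adjusted p = 0.0124), while Fabp1 had an adjusted p of 0.0868.

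Crypt progenitor-like cells, named by proliferation genes, showed a large difference between mice in Fabp1. Its level was 122, 11.9 and 7.73 CP10K anteriorly and 59.9, 4.01 and 1.92 CP10K posteriorly, so that mouse 1 lay above the others in both regions and the anterior sample was the higher one in every mouse, as for 15% of genes. Fabp2 in the same cells was even between the regions in mouse 1 (44.7 anterior and 44.2 posterior) and higher posteriorly in mouse 2 (16.6 and 33.7) and mouse 3 (13.8 and 24.9). By limma the differences were 1.48 for Fabp1 (SE 1.07, adjusted p = 1.00) and -0.61 for Fabp2 (SE 0.36, adjusted p = 1.00), with 0.02% of 4994 genes called. When any 1 sample was left out the Fabp1 difference ran from 0.27 (without anterior mouse 1) to 2.93 (without posterior mouse 1) and that of Fabp2 from -1.13 (without anterior mouse 1) to -0.29 (without anterior mouse 3), none past the threshold. With mouse as a replicate block, which takes out the level of each mouse, limma called 9 genes and Fabp1 was one of them (difference 1.48, adjusted p = 0.00462). In mouse 1 the enterocyte markers were also higher in these cells: their median was 34.6% and 31.2% of the enterocyte-like level of the same sample (anterior and posterior), against 10.7% to 12.5% in the other samples. Fabp1 was at 94.5% and 48.9% of the enterocyte-like level in mouse 1 and at 4.49% to 11.4% in the others. The part of these markers' level in the difference between mice was not tested.

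In enteroendocrine-like cells, the hormone-making class that the title of the series concerns, Fabp1 stood at 27.8, 13.4 and 10.05 CP10K anteriorly and at 9.86 and 3.76 CP10K in posterior mice 1 and 2. Fabp2 stood at 22.0, 7.59 and 4.94 CP10K anteriorly and at 42.1 and 48.6 CP10K posteriorly. Posterior mouse 3 had 4 such cells, under the minimum of 5, with 4.52 CP10K of Fabp1 and 52.7 CP10K of Fabp2, and was left out of the fit. Neither gene overlapped between the samples fitted, as for 12.2% of 4569 genes higher and 7.09% lower anteriorly. Within each mouse, posterior mouse 3 included, Fabp1 was higher and Fabp2 lower anteriorly, as 15.8% and 5.62% of genes were. By limma the differences were 1.32 for Fabp1 (SE 0.72, adjusted p = 0.966) and -2.24 for Fabp2 (SE 0.67, adjusted p = 0.417), with 0.0219% of genes called, 1 in number. When any 1 sample was left out the Fabp1 difference ran from 0.65 (without posterior mouse 2) to 1.99 (without posterior mouse 1) and that of Fabp2 from -2.84 (without anterior mouse 1) to -1.79 (without anterior mouse 3), none past the threshold, and limma called 13 genes without posterior mouse 2, 3 without posterior mouse 1 and 0 without anterior mouse 1 or 2. Whether the regional difference itself differed between classes was not tested.

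**Figure D2:**
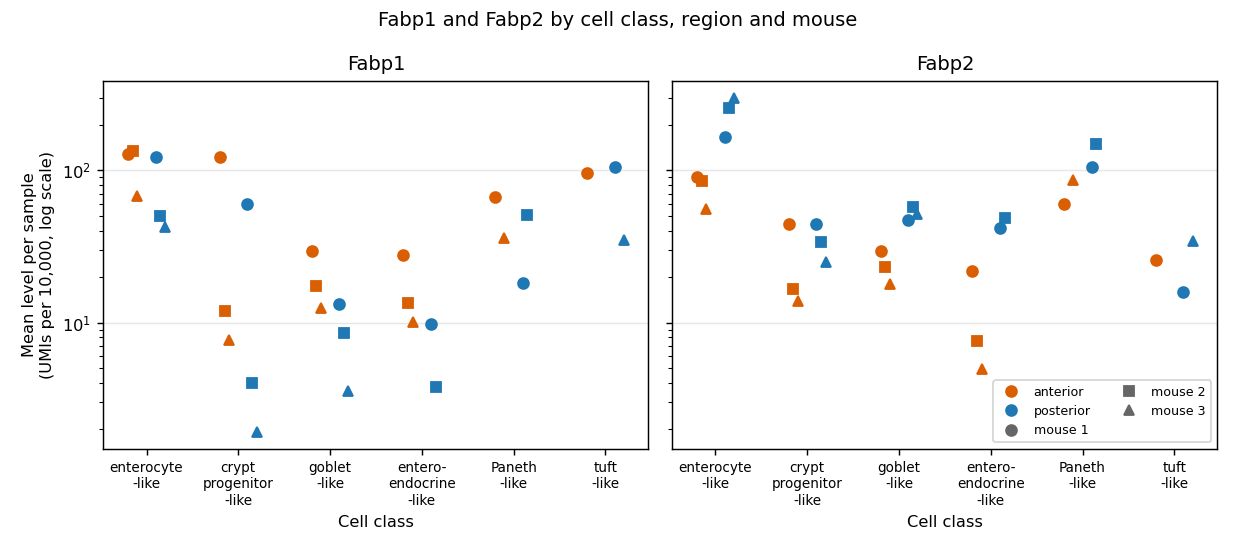
Mean level of Fabp1 (left) and Fabp2 (right) per sample in 6 cell classes (UMIs per 10000, log axis), for samples with at least 5 cells of the class; colour gives the region and the symbol the mouse. Enterocyte-like samples range from 42.7 to 133 for Fabp1 and from 55.5 to 300.2 for Fabp2, and tuft-like samples reach the enterocyte-like range for Fabp1 but lie below it for Fabp2.

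Across the samples of each class, the median Fabp1 level was 95.1 CP10K in enterocyte-like, 96.4 in tuft-like, 43.5 in Paneth-like, 12.9 in goblet-like, 10.05 in enteroendocrine-like and 9.80 in crypt progenitor-like cells. For Fabp2 the median was 128 CP10K in enterocyte-like, 95.4 in Paneth-like, 38.4 in goblet-like, 29.3 in crypt progenitor-like, 25.9 in tuft-like and 22.0 in enteroendocrine-like cells. These medians rest on 6 enterocyte-like, 6 goblet-like, 6 crypt progenitor-like, 5 enteroendocrine-like, 4 Paneth-like and 3 tuft-like samples, of which 2 tuft-like samples came from mouse 1. The sample ranges of neighbours in both orders overlapped, except that the lowest Paneth-like Fabp2 sample (59.8 CP10K) lay above the highest goblet-like one (57.9 CP10K). Contrasts with Paneth-like cells were not tested. By limma with sample as a block, both genes were higher in enterocyte-like cells than in the 3 larger classes. Against goblet-like cells the log2 difference was 2.77 for Fabp1 (SE 0.38, adjusted p = 1.6e-06) and 1.93 for Fabp2 (SE 0.27, adjusted p = 2.7e-06), where 14.9% of 5290 genes were called higher. Against crypt progenitor-like cells it was 2.597 (SE 0.38, adjusted p = 1.2e-05) and 2.29 (SE 0.27, adjusted p = 3.5e-07), with 10.2% of genes called higher. Against enteroendocrine-like cells it was 3.21 (SE 0.41, adjusted p = 6.5e-07) and 2.77 (SE 0.29, adjusted p = 1.4e-08), with 14% of genes called higher.

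Tuft-like cells, rare chemosensory cells marked here by Sh2d6 and Cd24a, separated the 2 genes. Only 3 samples had at least 5 of them: anterior mouse 1 (11 cells), posterior mouse 1 (17 cells) and posterior mouse 3 (5 cells). Fabp1 stood at 96.4, 105.7 and 35.2 CP10K in those samples, below the enterocyte-like level of the same samples (129, 123 and 42.7) in each. Fabp2 stood at 25.9, 16.0 and 34.2 CP10K, against 90.2, 167 and 300.2 in the enterocyte-like cells. Samples under the minimum of 5 cells went both ways for Fabp1. It was at 61.7 CP10K in anterior mouse 2 (3 cells), against 133 in enterocyte-like cells. In anterior mouse 3 (4 cells) it was at 164 against 67.6, and in posterior mouse 2 (1 cell) at 252 against 49.9. Between the regions of mouse 1, mean tuft-like Fabp1 was thus higher and Fabp2 lower posteriorly, the opposite order to the enterocyte-like cells. This rests on 11 and 17 cells, with no test. The median Fabp1 level over these cells ran the other way, at 81.0 CP10K anteriorly and 72.6 posteriorly. Mouse 3 had the enterocyte-like order, with Fabp1 at 164 (4 cells) and 35.2 CP10K and Fabp2 at 12.9 and 34.2, anterior and posterior. In mouse 2, with 3 anterior cells and 1 posterior cell, both genes were higher posteriorly. By limma Fabp1 was higher in tuft-like than in goblet-like cells by 2.31 (SE 0.49, adjusted p = 0.00108), than in crypt progenitor-like cells by 2.14 (adjusted p = 0.00102) and than in enteroendocrine-like cells by 2.75 (adjusted p = 3.7e-04). The shares of all genes called higher in these contrasts were 4.93%, 7.28% and 4.18%. The difference from crypt progenitor-like cells was 1.47 without posterior mouse 3 and 2.94 without anterior mouse 1, and that from enteroendocrine-like cells stayed between 2.32 and 3.29 when any 1 sample was left out. From enterocyte-like cells the tuft-like level of Fabp1 was not distinguished (enterocyte-like minus tuft-like 0.46, 95% interval -0.53 to 1.45, adjusted p = 0.518). For Fabp2 the enterocyte-like level was higher by 2.86 (SE 0.35, adjusted p = 3.4e-07), as 19.5% of genes were. Fabp2 in tuft-like cells differed from goblet-like cells by -0.94 (adjusted p = 0.0811), from crypt progenitor-like cells by -0.57 (adjusted p = 0.216) and from enteroendocrine-like cells by -0.10 (adjusted p = 0.90), none past the threshold. All limma p-values on tuft-like cells rest on 1 spread shared by all classes, to which the 3 tuft-like samples added little. Of those samples 2 are the regions of mouse 1. Mouse as the unit was not fitted for this class, which was not measured in every sample.

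Enterocyte markers were read in the same tuft-like cells. The summed level of 21 markers was 46.4, 21.6 and 50.9 CP10K in the 3 tuft-like samples and 159 to 325 CP10K in enterocyte-like cells. Per marker, the median tuft-like level was 11.3%, 5.33% and 11.1% of the enterocyte-like level of the same sample. Fabp1 stood at 74.8%, 86.3% and 82.3%, above 20, 21 and 19 of the 21 markers, whereas Fabp2 stood at 28.7%, 9.59% and 11.4%, above 17, 12 and 11 of them. Against cluster 1 alone as the reference, tuft-like Fabp1 was at 61.8%, 90.3% and 43.4% and Fabp2 at 18.4%, 5.95% and 5.98%. The plates of mouse 1 gave 5 separate readings of tuft-like Fabp1, 127 and 70.5 CP10K anteriorly and 67.5, 52.3 and 160.2 CP10K posteriorly, each from 3 to 8 cells. On the same plates goblet-like cells had 28.5 and 31.6 CP10K anteriorly and 8.87, 13.9 and 17.8 CP10K posteriorly, below the tuft-like reading of each plate.

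**Figure D3:**
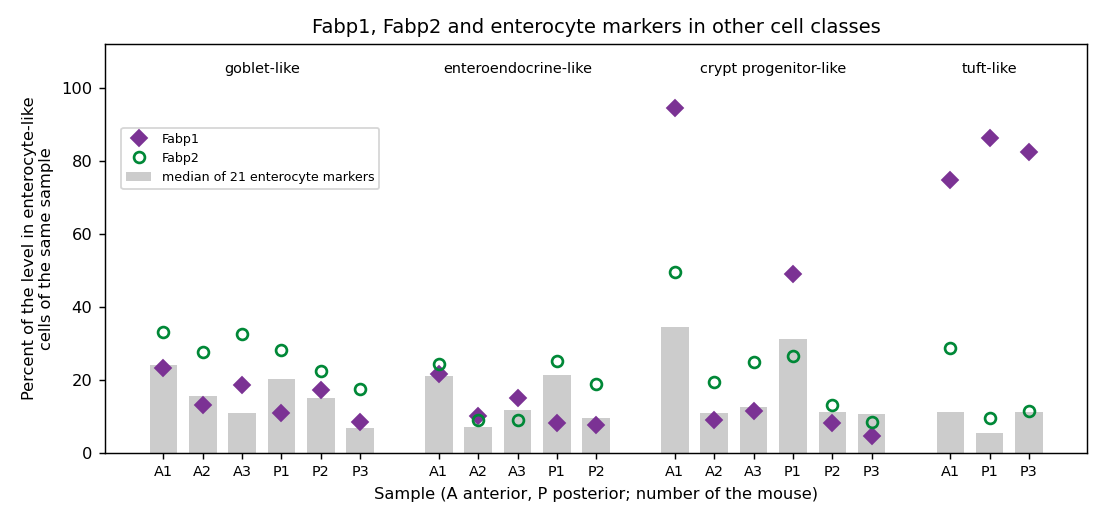
Fabp1 (filled diamonds) and Fabp2 (open circles) in 4 other classes as a percent of the enterocyte-like level of the same sample, beside the median of 21 enterocyte markers (grey bars), for samples with at least 5 cells of the class. Fabp1 stands at 74.8% to 86.3% in the 3 tuft-like samples, far above the marker bars, and in crypt progenitor-like cells it is high in both samples of mouse 1 alone.

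The same reference was applied to the other classes. In goblet-like cells Fabp1 was at 8.35% to 23.1% of the enterocyte-like level over the 6 samples, against marker medians of 6.63% to 24.0%, within the span of the markers. Goblet-like Fabp2 was at 17.3% to 33.0%, above 15 to 20 of the 21 markers in each sample. In enteroendocrine-like cells Fabp1 was at 7.54% to 21.6% and Fabp2 at 8.91% to 25.3%, against marker medians of 7.03% to 21.2%. The part of RNA from other cells in these low levels was not tested. Paneth-like cells were the shallowest class, at a median of 923 UMIs, and their cluster also raised most goblet markers. These cells had 66.5 and 36.1 CP10K of Fabp1 in anterior mice 1 and 3 and 18.3 and 50.9 CP10K in posterior mice 1 and 2. Their Fabp2 level was 59.8 and 86.4 CP10K anteriorly and 104.5 and 149.6 CP10K posteriorly. These levels were 14.9% to 102% of the enterocyte-like level of the same sample for Fabp1 and 58.0% to 155.6% for Fabp2. Their enterocyte marker median was also high, at 45.1% to 56.5%, and these cells entered no test.

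Cell by cell, 38 of 41 tuft-like cells held at least 1 Fabp1 UMI (92.7%, Wilson 95% interval 80.6% to 97.5%), as did 821 of 890 enterocyte-like cells (92.2%, 90.3% to 93.8%). The share was 536 of 629 in goblet-like cells (85.2%, 82.2% to 87.8%) and 91 of 109 in enteroendocrine-like cells (83.5%, 75.4% to 89.3%). Median depths of these classes were 2807, 4593, 2219 and 3710 UMIs. After each cell was thinned to 1000 UMIs, which left out 1, 76, 60 and 13 cells, the shares were 90.0%, 85.7%, 63.4% and 68.8%, and the mean thinned count of Fabp1 was 9.75, 8.19, 1.87 and 1.99 UMIs. For Fabp2 the thinned shares of the same 4 classes were 75.0%, 94.96%, 86.6% and 75.0%, with 2.28, 18.3, 3.66 and 2.74 UMIs per cell. More Fabp1 than Fabp2 UMIs were counted in 32 of 41 tuft-like cells, against 292 of 890 enterocyte-like, 149 of 273 crypt progenitor-like, 161 of 629 goblet-like and 39 of 109 enteroendocrine-like cells. These shares pool the cells of all samples, to which mouse 1 gave 11 anterior and 17 posterior of the 41 tuft-like cells, 114 and 82 of the 273 crypt progenitor-like cells, and 97 and 74 of the 890 enterocyte-like cells. No class here is known to lack both genes, so no background share could be read, and the intervals cover counting error only.

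The Fabp1 to Fabp2 ratio was also compared between classes within samples. None of the 4 differences passed after adjustment, and with so few samples none could. It was higher in enterocyte-like than in goblet-like cells in all 6 samples, by 0.85 on the log2 scale (two-sided exact sign-flip permutation test, p = 0.03125, the smallest possible, adjusted p = 0.125 over the 8 ratios). These 6 samples are 2 regions of 3 mice, and with mouse as the unit the exact sign-flip permutation p was 0.25, the smallest that 3 mice allow. Against crypt progenitor-like cells the difference was 0.30 and ranged from -0.93 to 1.12 over 6 samples (exact sign-flip permutation p = 0.469, adjusted p = 0.469). Against enteroendocrine-like cells it was 0.44 and ranged from -0.71 to 1.63 over 5 samples (exact sign-flip permutation p = 0.375, adjusted p = 0.429). In tuft-like cells the ratio was 3.73, 6.61 and 1.03, above the enterocyte-like ratio in all 3 samples by 2.46 on average, with an exact sign-flip permutation p of 0.25, the smallest that 3 samples allow, and an adjusted p of 0.4.

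Position along the villus was read from a score per enterocyte-like cell, the mean of 9 villus tip genes minus that of 13 villus base genes, with no lipid gene in it. Cells of each sample were split into 3 equal parts by this score. Apoa4, an apolipoprotein of upper villus cells that was not in the score, rose from the lowest to the highest part in all 6 samples, for instance from 101 to 594 CP10K in anterior mouse 3. Fabp1 was lower in the highest than in the lowest part in 6 of 6 samples, as 11.6% of 4966 genes were. Its level from the lowest to the highest part was 143, 185 and 57.9 CP10K in anterior mouse 1, 156, 141 and 102 in anterior mouse 2, and 114, 59.0 and 29.2 in anterior mouse 3. In posterior mice 1, 2 and 3 it was 172, 91.7 and 103, then 55.8, 67.9 and 25.6, then 46.3, 61.4 and 20.1 CP10K. By limma with sample as a block the highest minus lowest difference for Fabp1 was -1.15 (SE 0.21, adjusted p = 4.3e-04), and 9.3% of genes were called lower.

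Fabp2 did not change along the score past the threshold. Its level from the lowest to the highest part was 63.9, 117 and 90.6 CP10K in anterior mouse 1, 89.3, 92.8 and 72.8 in anterior mouse 2, and 67.7, 62.4 and 36.2 in anterior mouse 3. In posterior mice 1, 2 and 3 it was 111.9, 122 and 271, then 268, 311 and 195, then 255, 373 and 272 CP10K. The middle part was the highest in 4 of 6 samples, and the highest part lay below the lowest in 3. The limma difference was 0.04 (SE 0.20, 95% interval -0.38 to 0.45, adjusted p = 0.923). The log2 Fabp1 to Fabp2 ratio fell by 1.19 from the lowest to the highest part, with a fall in all 6 samples (two-sided exact sign-flip permutation p = 0.03125, the smallest possible, adjusted 0.125). With mouse as the unit the exact sign-flip permutation p of this fall was 0.25, the smallest that 3 mice allow. The change along the score did not differ between regions past the threshold for Fabp1 (anterior minus posterior -0.27, 95% interval -1.17 to 0.63, adjusted p = 0.990) or Fabp2 (-0.53, 95% interval -1.39 to 0.32, adjusted p = 0.987). For that difference limma called 0 of 4966 genes (0%), with 270 at an unadjusted p under 0.05.

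**Figure D4:**
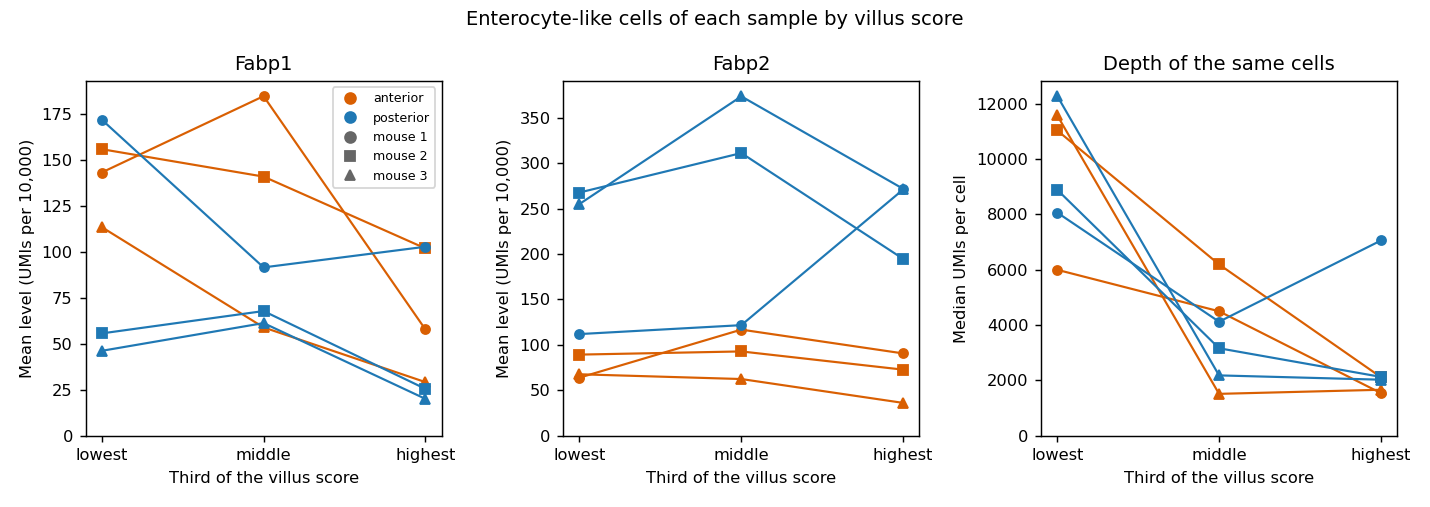
Fabp1 (left), Fabp2 (middle) and depth (right, median UMIs per cell) in enterocyte-like cells of each sample split into 3 parts by the villus score; levels are mean UMIs per 10000 on linear axes and lines join the parts of a sample. Fabp1 ends lower than it starts in all 6 samples, Fabp2 does so in 3, and depth falls from between 5999 and 12282 to between 1542 and 7057.5.

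Depth moved with the score and with the clusters. The median depth fell from 11035 to 2118 UMIs per cell in anterior mouse 2 and from 12282 to 2027 in posterior mouse 3, but only from 8067 to 7057.5 in posterior mouse 1. Cells of the shallow cluster 9 numbered 11 in the lowest and 56 in the highest part in anterior mouse 3, and 26 and 61 in posterior mouse 2. In cells of at least 2000 UMIs the limma difference was -0.40 for Fabp1 (adjusted p = 0.0990) and 0.57 for Fabp2 (adjusted p = 0.0107). Within cluster 1 alone it was -0.19 for Fabp1 (adjusted p = 0.614) and 0.70 for Fabp2 (adjusted p = 1.6e-04). The call on Fabp1 was thus lost in deep cells, and a rise of Fabp2 passed the threshold there. A score from the tip genes alone gave -0.17 for Fabp1 (adjusted p = 0.615) and 0.59 for Fabp2 (adjusted p = 0.0200). Without cluster 10 the fall of Fabp1 was -1.47 (adjusted p = 6.4e-05) and the Fabp2 difference -0.41 (adjusted p = 0.164). Over all alternatives limma called from 202 genes, within cluster 1, to 1476 along the score in either direction. The main fit called 817 (16.5%), so the count of genes called beside these Fabp2 calls differed between settings.

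Across single enterocyte-like cells the genes were high in the same cells, with a Spearman correlation of their levels of 0.52 to 0.73 within the 6 samples. Both levels also went with the depth of the cell, with a correlation of 0.46 to 0.58 for Fabp1 and 0.33 to 0.45 for Fabp2, so these values describe the libraries and carry no test. Over 30 combinations of sample and class, the log2 levels of Fabp1 and Fabp2 correlated by 0.39 (Pearson), and Fabp2 ranked 354 among 5249 genes in likeness to Fabp1. The genes most like Fabp1 in this measure were Reg3a (0.82), Gstm3 (0.74), Cyb5r3 (0.72), Atp1b1 (0.72) and Ano6 (0.70). Reg3a encodes an antimicrobial lectin, Gstm3 a glutathione transferase, Cyb5r3 a cytochrome b5 reductase and Atp1b1 a sodium pump subunit. The genes most like Fabp2 were Enpep (0.86), Guca2b (0.86), Cndp2 (0.83), Apoa1 (0.83) and 2200002D01Rik (0.80). Enpep encodes a brush border aminopeptidase, Guca2b uroguanylin, Cndp2 a cytosolic dipeptidase and Apoa1 a chylomicron apolipoprotein. The combinations share mice, plates and cell classes and are not independent.

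Of the rest of the family, only Fabp6, the bile acid binding protein of the ileum, was in both tables, and Fabp5 was in the anterior table alone. Fabp6 was low in enterocyte-like cells, at 0.247, 0.259 and 0.510 CP10K anteriorly and 0.391, 2.71 and 0.590 CP10K posteriorly. Its groups overlapped, and the limma difference was -1.07 (SE 0.57, adjusted p = 1.00). Between classes Fabp6 passed by limma only against enteroendocrine-like cells (1.49 higher in enterocyte-like cells, adjusted p = 0.0270) among the 4 contrasts with enterocyte-like cells. The enteroendocrine-like samples held 0 to 2 Fabp6 UMIs each, so this call lies at the floor.

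The other genes of fatty acid handling were read from 7 lists (binding, uptake, activation, triglyceride synthesis, chylomicron assembly, oxidation and regulators), leaving out Fabp1 and Fabp2. Between regions of enterocyte-like cells no member passed, of 5, 9, 3, 14, 12, 27 and 12 tested. The largest median difference was 0.37, for uptake, against 0.08 over all genes. The members of smallest p were Acaa1b, a peroxisomal thiolase (1.33, adjusted p = 0.906), Agpat3, an acyltransferase of phospholipid and triglyceride synthesis (0.90, adjusted p = 1.00), and Slc27a2, an acyl-CoA synthetase and fatty acid transporter (1.01, adjusted p = 1.00). Acaa1b stood at 1.86, 1.496 and 1.80 CP10K anteriorly and at 0.542, 0.885 and 0.342 CP10K posteriorly, with no overlap, as for 6.35% of genes in this direction. Agpat3 stood at 1.25, 1.23 and 1.17 CP10K anteriorly and at 0.548, 0.561 and 0.569 CP10K posteriorly, again with no overlap. Apoa4 (0.67, adjusted p = 1.00) overlapped between regions, as did Scp2, the sterol carrier protein, with a difference of -0.33.

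The lists were also counted between classes. Against goblet-like cells, where 14.9% of all genes were called higher in enterocyte-like cells, 9 of 12 chylomicron genes were higher and 1 lower, with a median of 2.21 against 0.47 over all genes; Apoa1 was higher by 2.87 (limma adjusted p = 8.3e-09) and Apoa4 by 2.80. Of the triglyceride synthesis genes 7 of 13 were higher, among them Mogat2, the intestinal monoacylglycerol acyltransferase, by 2.57, and of the oxidation genes 12 of 27. Clps, the colipase gene, was higher in goblet-like cells (-3.42), as was Foxa3, a transcription factor (-3.19), among the 3.48% of all genes called so. Against tuft-like cells, where Fabp1 did not differ past the threshold and 19.5% of all genes were called higher, 9 of 12 chylomicron genes were higher (median 2.49 against 0.62 over all genes), with Apob, the structural protein of the particle, higher by 4.94 and Apoa1 by 3.62. The binding genes Rbp2, which carries retinol, Scp2 and Dbi, which binds acyl-CoA, were higher than in tuft-like cells by 3.77, 3.04 and 1.62. In tuft-like against goblet-like cells none of the 12 chylomicron genes and none of the 5 other binding genes passed. Against crypt progenitor-like cells 7 of 12 chylomicron, 9 of 13 triglyceride synthesis and 2 of 27 oxidation genes were higher (10.2% of all genes), and against enteroendocrine-like cells 9 of 12, 10 of 13 and 5 of 27 (14%).

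Along the villus score 4 of 9 uptake genes, 3 of 14 triglyceride synthesis genes and 5 of 12 chylomicron genes were higher in the highest part and none of them lower (7.15% of all genes were called higher), with medians of 0.89, 0.41 and 0.34 against -0.10 over all genes. Among the genes named by smallest p, the largest rises were Lpin2, a phosphatidate phosphatase (2.48, limma adjusted p = 0.00114), and Apoa4 (2.32, adjusted p = 8.4e-08), followed by Creb3l3, a regulator of apolipoprotein genes (1.72), and Npc1l1, the cholesterol importer (1.58). Dbi fell by 1.14 (adjusted p = 4.1e-04), Acot13, an acyl-CoA thioesterase, fell by 1.59 and Eci1, of fatty acid oxidation, fell by 1.08. In the oxidation list 1 of 27 was lower and none higher, with a median of -0.56.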

How the data were processed

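Expression was read in 6 samples, anterior and posterior jejunum of 3 mice. The authors deposited log2 values, in 1 table of genes by cells per region, each made separately. Tools named per the submitters' processing notes are STAR 2.6.1b, cutadapt 1.18, UMI-tools 1.0.0, bcl2fastq and R 3.5.1, with GRCm38/mm10. Filters on cells and genes are not given in the sources. Tested on the values, each was log2 of UMIs over a size factor, plus 1, shifted linearly within a gene. Undoing this gave whole counts for 100% of both tables' values within 0.01, where 82.9% of anterior and 83.6% of posterior values were 0 UMIs. In 195 anterior and 175 posterior genes the shift was itself searched to make counts whole. Other log bases were read on a narrower set, values above 1 UMI in genes whose shift was fitted on cells at 0 UMIs. There base e gave 0.990% and 1.23% whole, and base 10 gave 1.96% and 2.23%, so these shares are not on the measure of the 100%. Tables had 6839 anterior and 5831 posterior genes, 5674 shared with 98.0% of UMIs; only shared genes and totals over them were used. The number of columns mapped to no sample was 0. An undefined marker column of the plate sheet, and wells of 0 or 10 cells, were not used.

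Cells were clustered with scanpy 1.11.5 (1500 variable genes, 25 components, 15 neighbours, Leiden resolution 1), with the 85 Fabp and lipid genes in both tables held out. Clusters were named from marker lists; the naming rule was settled after the clusters were seen. No doublet caller was run, since cells were sorted singly into wells. Of markers of other cells the sort could hold, only Cd8a (T cell, 1 of 10) and Pecam1 (stromal, 1 of 8) were in both tables, at 0.0608 to 1.41 CP10K over classes, and no myeloid or B cell marker was.

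Mean CP10K per class and sample (at least 5 cells) was tested as log2(mean + 0.2) with limma 3.58.1 (eBayes with trend) in R 4.3.3 over genes with a mean of at least 0.2, with Benjamini-Hochberg adjustment over all genes tested and a threshold of 0.05; fold changes on this scale understate those of low genes. Class and villus fits had sample as a block, so the regions of a mouse entered as separate samples; an alternative averaged them, for classes measured in every sample. Region fits had none; the samples pair by mouse per the labels, and deviations from the group means correlated by 0.43, 0.08 and 0.32 within mice 1, 2 and 3, so the fit with the replicate block is given where it changes a call. Ratios were tested by exact permutation. On simulated data, recovery returned 99.8% of values (1500 genes, 400 cells) and accepted 0 wrong genes. It returned 17 of 20 abundant genes and found no solution for 3 genes. Fabp1 and Fabp2 are abundant too, at ranks from 2 to 20 in enterocyte-like cells. In simulation the enterocyte-like region fit (4756 genes) found 32% of changes of log2 1 and 96% of log2 2 with 6 false calls. The enterocyte-like against goblet-like fit (4782 genes) found 96% and 100% with 38. The simulated cells of a class and sample shared 1 mean per gene, with no clusters inside a class and no effect of the mouse. Low genes were left unchanged in it. These shares found by limma may therefore be too high for the real data. Named genes were Fabp1, Fabp2, other Fabp genes, up to 3 members of each lipid list of smallest p, and the 5 genes most like each member. The members and lists were chosen with earlier results of these data known. Alternatives covered pseudocount, filters, scaling, depth, clustering, score genes, single samples and the block; those by cluster, without mouse 1, with mouse as the unit, in enteroendocrine-like cells and from tuft-like cells were added after seeing the data.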

Additional observations from a re-analysis of the deposited data

How the results depend on the processing

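Over 34 results on the members, 570 of 600 alternative values kept their direction and their side of the threshold; the cause of the others was not tested. In the region fits without a block, p-values measure the spread between the samples of these 3 mice, which limma pools with that of other genes. Its total degrees of freedom grow with the part taken from other genes. They were 11.2 in enterocyte-like, 27.4 in goblet-like, 13.4 in crypt progenitor-like and 13707 in enteroendocrine-like cells. In enteroendocrine-like cells the spread used was thus almost wholly that of other genes. In the class and villus fits, with sample as a block, p-values measure the spread of differences within samples, shared over the classes or villus parts. None reaches beyond these animals, and 41 tuft-like cells from few samples limit that class. Levels rest on recovered UMIs, and cell class names on rebuilt clusters.

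The mouse pairing mattered for calls: with the replicate block, Fabp2 in goblet-like cells (-1.16, adjusted p = 0.0124) and Fabp1 in crypt progenitor-like cells (1.48, adjusted p = 0.00462) passed, the counts of called genes went to 6, 4, 9 and 3 in enterocyte-like, goblet-like, crypt progenitor-like and enteroendocrine-like cells from 0, 1, 1 and 1, and no other call on a member changed. Fabp2 between regions of enterocyte-like cells passed in cluster 9 alone (-2.03) and without both samples of mouse 1 (-2.02, mice 2 and 3 only). There 12 and 9 genes were called, and 4 in cluster 10 alone. Leaving out 1 sample in turn moved the Fabp2 difference between -1.89 and -1.42 and that of Fabp1 between 0.43 and 1.183, with none past the threshold.

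For Fabp2 in tuft-like cells, the difference from goblet-like cells passed with totals without the 20 most abundant genes (-1.54) and with deposited log values (-1.48). Without mouse 1 the class is 1 sample of 5 cells, assumed to vary like the others: the difference from crypt progenitor-like cells was then 0.037. That from enteroendocrine-like cells was 0.11 on summed UMIs, 0.15 in cells of at least 2000 UMIs, -0.31 to 0.49 leaving out 1 sample (0.49 without posterior replicate 1, 0.037 without posterior replicate 2) and 0.57 without mouse 1. Enterocyte-like minus tuft-like Fabp1 was -0.19 without mouse 1, although the level of that lone sample was higher in enterocyte-like cells (42.7 against 35.2 CP10K).

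With mouse as the unit, which was fitted along the villus and against goblet-like and crypt progenitor-like cells, no call on a member changed (Fabp1 along the villus -1.13, adjusted p = 0.00488), and ratios had an exact sign-flip permutation p of 0.25 or more.

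Along the villus score, Fabp1 missed the threshold in cells of at least 2000 UMIs (-0.40), with tip genes alone (-0.17) and within cluster 1 (-0.19). Fabp2 passed on summed UMIs (0.46), in cells of at least 2000 UMIs (0.57), with tip genes alone (0.59) and within cluster 1 (0.70), and was negative with base genes alone (-0.27), with deposited log values (-0.13), without cluster 10 (-0.41), without mouse 1 (-0.39), and leaving out anterior replicate 1 (-0.06) or posterior replicate 1 (-0.21), within a range of -0.21 to 0.22 over single samples. The regional difference in the change along the score turned positive for Fabp1 without anterior replicate 3 (0.059, range -0.61 to 0.059 over single samples), with tip genes alone (0.16) and within cluster 1 (0.57), and for Fabp2 within cluster 1 (0.35). Genes called along the score ranged from 202 within cluster 1 to 1476 with deposited log values, against 817, and were 453 without anterior replicate 3 and 440 without posterior replicate 3. Class contrasts called 559 to 1881 genes against crypt progenitor-like, 495 to 1197 against enteroendocrine-like and 632 to 1709 against tuft-like cells, from 1144, 926 and 1225 (752 against crypt progenitor-like cells without anterior replicate 3 and 711 against tuft-like cells without posterior replicate 3). The tuft-like contrasts called 381 to 918 (goblet-like), 838 to 2229 (crypt progenitor-like) and 370 to 911 genes (enteroendocrine-like), from 595, 1783 and 555.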
